A study of Homo sapiens with 6 samples.

Results

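TFIID is the complex that places RNA polymerase II at gene starts, and the mRNA levels of 10 of its subunits, TBP, TAF2, TAF4, TAF5, TAF6, TAF7, TAF9, TAF10, TAF12 and TAF13, were followed in Kasumi-1 cells. They were 10 of the 29810 genes in the deposited table, and all 10 exceeded the minimum mean of 0.5 FPKM (fragments per kilobase of exon, scaled to the fragments of the library) set for the fits. The group was chosen from measured values, because TAF10 was among the genes lower after I3. The change of TAF10, and of every other member in the same contrast, is therefore given as a description with no p-value. TAF10 mRNA was at 54.4% of its control level after I3. The other 9 members differed from control by at most 0.14 on the log2 scale.

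Kasumi-1 is an established human acute myeloid leukemia line that carries the RUNX1-RUNX1T1 fusion, and all 6 libraries came from this 1 line. The 3 control libraries came from cells kept for 48 h with the control agent, which the study's methods give as DMSO. The 3 I3 libraries came from cells kept for 48 h with 0.25 μM I3, an inhibitor of histone deacetylases. A figure legend of the study gives another time, the name of the deposited table gives another compound name, and the labels were followed here. The libraries hold polyadenylated RNA, and the labels do not say whether they came from separate cultures, so the errors below are the spread between these libraries and may be technical. In bulk RNA, fewer expressing cells and less RNA per cell cannot be told apart.

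The steps between FPKM values, with exon length, gave a scaling depth of 17500320 to 18193372 reads per library, so depth differed little between the groups. All 6 markers of the line (KIT, CD34, CD33, MPO, RUNX1T1 and PTPRC) were above 0.5 FPKM in both groups, with a summed level of 8057 to 8894 FPKM in control and 8015 to 8592 FPKM in I3 libraries. Of 9 markers of other cell types, 4 reached 0.5 FPKM in some library, led by EPCAM at up to 31.6 FPKM. CD79A, PECAM1 and CD3D reached at most 1.90, 1.96 and 1.09 FPKM, and no marker was at 0 in all libraries. The summed level of these 9 markers was 32.4 to 34.7 FPKM in control and 32.5 to 35.4 FPKM in I3 libraries, and their part in the results was not tested. GAPDH, ACTB and HPRT1 were at 40.6 FPKM or more in every library, and 0 was taken to mean that no read was counted. Libraries differed in how gene levels moved with the GC content of transcripts. The rank correlation of a gene's deviation from its mean with GC content was -0.31, 0.45 and 0.34 in control libraries 1 to 3 and -0.23, 0.26 and -0.45 in I3 libraries 1 to 3, across 12939 genes that are not independent replicates.

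TFIID is built from TBP, which bends DNA at the core promoter, and TBP-associated factors (TAFs). Many TAFs carry histone folds and join in pairs, TAF6 with TAF9, TAF4 with TAF12, TAF11 with TAF13, and TAF10 with TAF8 or TAF3. TAF9, TAF10 and TAF12 are also subunits of SAGA, a coactivator that acetylates histone H3 and removes ubiquitin from histone H2B. TBP is further used by RNA polymerases I and III in the complexes SL1 and TFIIIB.

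To show what the start regions of the members hold, 250 bases before each RefSeq start (GRCh38.p14) were searched on both strands, and 9 of the 10 members had such a window. The letters searched were TGACGTCA for the cyclic AMP response element (CRE) and CCGGAAG for factors of the ETS family. The GC box bound by SP1 was written as GGGCGG, and the box bound by TBP itself as TATAAA. The motif of NF-Y was CCAAT. That of bHLH factors, the E-box, was written as CACGTG, and that of YY1 as AAGATGGCG. Matches overlapping each other were all counted. The 3 stretches below are from the member with the lowest change (TAF10), the member with the highest (TBP) and the other member with the widest spread between libraries (TAF13). They are written 5′ to 3′, with matches in capitals. For TAF10 it is the CRE with its flanks, chr11:6612246-6612275 on the minus strand, which lies in the first exon of the GENCODE 29 model, whose start is 451 bases upstream of the RefSeq start. For TBP it is the part of the window before the GENCODE gene, chr6:170554119-170554301 on the plus strand, with an NF-Y motif and a GC box. For TAF13 it is the whole window, chr1:109076004-109076253 on the minus strand, with an ETS match.
TAF10: tcgtgggcgcgTGACGTCAccccggggtgt
TBP: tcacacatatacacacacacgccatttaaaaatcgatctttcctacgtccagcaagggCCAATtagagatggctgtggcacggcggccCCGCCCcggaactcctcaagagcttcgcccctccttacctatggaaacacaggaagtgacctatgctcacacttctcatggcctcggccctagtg
TAF13: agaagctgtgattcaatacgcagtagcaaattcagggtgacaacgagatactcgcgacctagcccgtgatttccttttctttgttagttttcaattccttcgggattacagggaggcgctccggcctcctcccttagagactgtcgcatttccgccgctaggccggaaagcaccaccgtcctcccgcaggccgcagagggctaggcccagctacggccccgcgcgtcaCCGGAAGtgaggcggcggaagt

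The CRE of TAF10 began 48 bases before the RefSeq start, and TAF10 was the 1 member of 9 with these letters in its first window. Of all 35116 RefSeq windows, 1.65% held them. In first windows, GC boxes stood in those of 6 members (TAF4, TAF5, TAF7, TAF9, TAF10 and TBP), against 42.6% of all windows. Also in first windows, ETS matches stood in those of TAF12 and TAF13 (8.52% of all windows), NF-Y motifs in those of TAF4, TAF5 and TBP (32.0%), and an E-box in that of TAF12 (6.34%). The letters of TBP and YY1 were in the first window of 0 of the 9 members, and in 10.7% and 0.652% of all windows. TAF6 and TAF9 have further RefSeq starts, and their second windows added a GC box and NF-Y motifs for TAF6 and GC boxes, an ETS match and an E-box for TAF9. The GC content of the TAF10 window was 68.8%, that of TBP 56% and that of TAF4 86%, with a median of 58% over all windows. These matches describe letters and were not tied to any measured binding.

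TAF10 is a histone-fold subunit that TFIID and SAGA share (ENSG00000166337, chromosome 11, 6606296 to 6612667 on hg38, minus strand). Its level was 7.19, 8.64 and 8.15 FPKM in control libraries 1 to 3 and 5.20, 4.63 and 3.22 FPKM in I3 libraries 1 to 3. Every I3 library was below every control library, and I3 library 3 was the lowest. The means were 7.99 ± 0.739 FPKM in control and 4.35 ± 1.02 FPKM in I3 libraries (SD, n = 3 each). On the log2(FPKM + 0.5) scale the difference of I3 minus control was -0.83 with a standard error of 0.160. In rebuilt reads, TAF10 had 775, 939 and 870 in control and 566, 503 and 357 in I3 libraries. The ratio of I3 to control reads per library depth was 0.543, with an exact binomial 95% interval of 0.509 to 0.58 that covers counting error only.

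**Figure D1:**
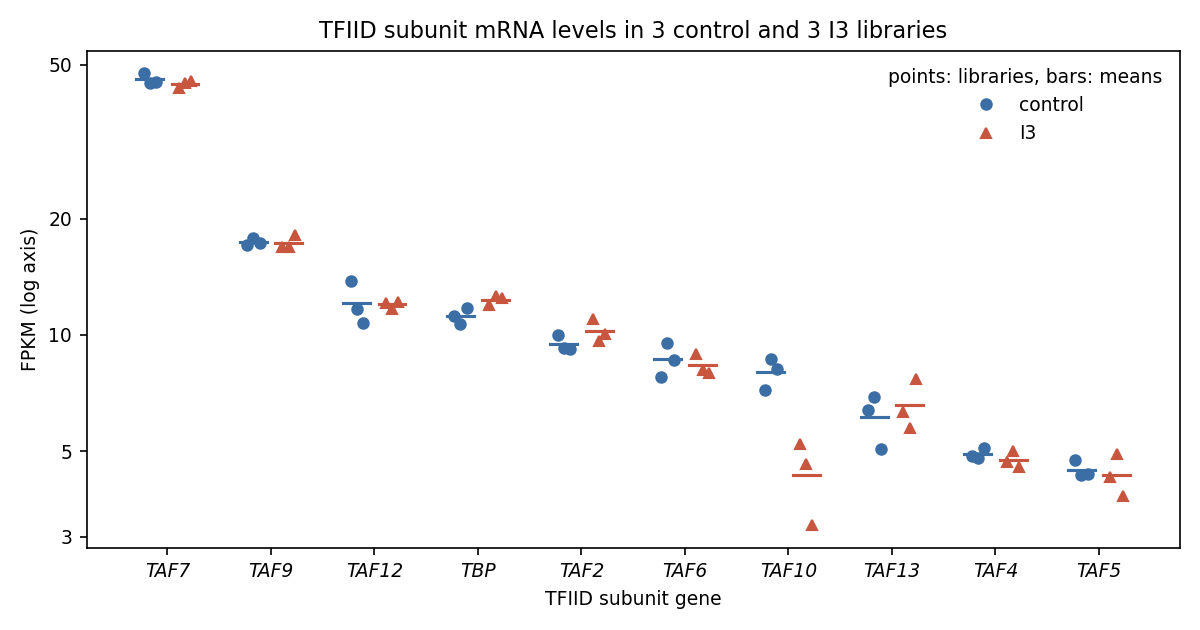
FPKM of the 10 TFIID subunit genes on a log axis, ordered by control mean; circles are control libraries, triangles I3 libraries and bars group means (3 libraries each). The I3 libraries of TAF10 sit between 3.22 and 5.20 FPKM, below all 3 control libraries, while for 8 of the other 9 genes the groups overlap.

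In limma over 12960 genes, no gene in either direction combined an adjusted p under 0.05 with a log2 fold change of at least 0.58 (0% of genes higher and 0% lower). By voom on rebuilt reads the count was also 0. At an unadjusted p under 0.05 with no fold threshold, 269 genes were higher (2.08%) and 370 lower (2.85%). In simulated data without a change, 5.53% of genes had such a p, with both directions counted. Genes with such a p were no more frequent in these libraries than in that simulation, which drew each gene independently. Real genes share trends within a library, such as that with GC content. The comparison therefore cannot show how many genes changed. At an unadjusted p with the same fold, 98 genes were higher (0.756%) and 84 lower (0.648%), and TAF10 was 1 of the 84, which the way the members were chosen makes a description. Of the 12960 genes, 69 had a lower log2 fold change than TAF10, and among 6642 genes with a mean of at least 5 FPKM there were 14. The fold change of TAF10 lay well past the threshold of 0.58, and the nearest member outside it on the lower side was TAF4 at -0.048. The groups did not overlap for TAF10 (lower) and TBP (higher), 1 member each way, against 4.64% of all genes lower and 5.06% higher. Below 0 were 7 of 10 members, beside 45.8% of all genes, and the members' median was -0.026 beside 0.011 over all genes.

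TBP, the DNA-binding core of the complex, was at 11.2, 10.7 and 11.7 FPKM in control and 12.0, 12.6 and 12.5 FPKM in I3 libraries. All 3 I3 libraries were above the controls, by a small margin. The means were 11.2 ± 0.535 and 12.3 ± 0.332 FPKM (SD, n = 3), and the log2 difference was 0.14 with a standard error of 0.0614. With the GC trend of each library removed, the TBP groups overlapped and the difference was 0.11.

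TAF2, which contacts initiator DNA downstream of TBP, was at 10.01, 9.27 and 9.21 FPKM in control and 11.02, 9.62 and 10.05 FPKM in I3 libraries. Its groups overlapped, and its log2 difference was 0.10 with a standard error of 0.0728. TAF7, a partner of TAF1 that restrains its activity, was the most abundant member per length, at 47.6, 45.0 and 45.2 FPKM in control and 43.7, 44.9 and 45.4 FPKM in I3 libraries. The groups of TAF7 overlapped and its log2 difference was -0.039 with a standard error of 0.0499. With the GC trend removed the difference was -0.064 and the groups no longer overlapped.

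Among the core subunits, TAF5, a WD40-repeat scaffold, was at 4.75, 4.33 and 4.35 FPKM in control and 4.29, 4.92 and 3.82 FPKM in I3 libraries. The lowest and the highest of these 6 values were both I3 libraries. TAF6, the histone-fold partner of TAF9, was at 7.77, 9.54 and 8.61 FPKM in control and 8.91, 8.11 and 7.98 FPKM in I3 libraries. TAF9 itself, also a SAGA subunit, was at 17.1, 17.9 and 17.3 FPKM in control and 16.9, 16.9 and 18.1 FPKM in I3 libraries. TAF4, a coactivator contact, was at 4.87, 4.79 and 5.10 FPKM in control and 4.69, 5.01 and 4.54 FPKM in I3 libraries. The groups of these 4 genes overlapped, and their log2 differences were -0.045, -0.047, -0.014 and -0.048 for TAF5, TAF6, TAF9 and TAF4, with standard errors of 0.0989, 0.0885, 0.0566 and 0.0705.

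TAF12, the partner of TAF4 and a SAGA subunit, was at 13.8, 11.7 and 10.7 FPKM in control and 12.1, 11.7 and 12.2 FPKM in I3 libraries, so that the I3 values lay inside the control range. Its log2 difference was -0.0014 with a standard error of 0.0940. TAF13, the partner of TAF11, was at 6.39, 6.90 and 5.06 FPKM in control and 6.33, 5.74 and 7.70 FPKM in I3 libraries. Its groups overlapped, with a log2 difference of 0.10 and a standard error of 0.139.

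**Figure D2:**
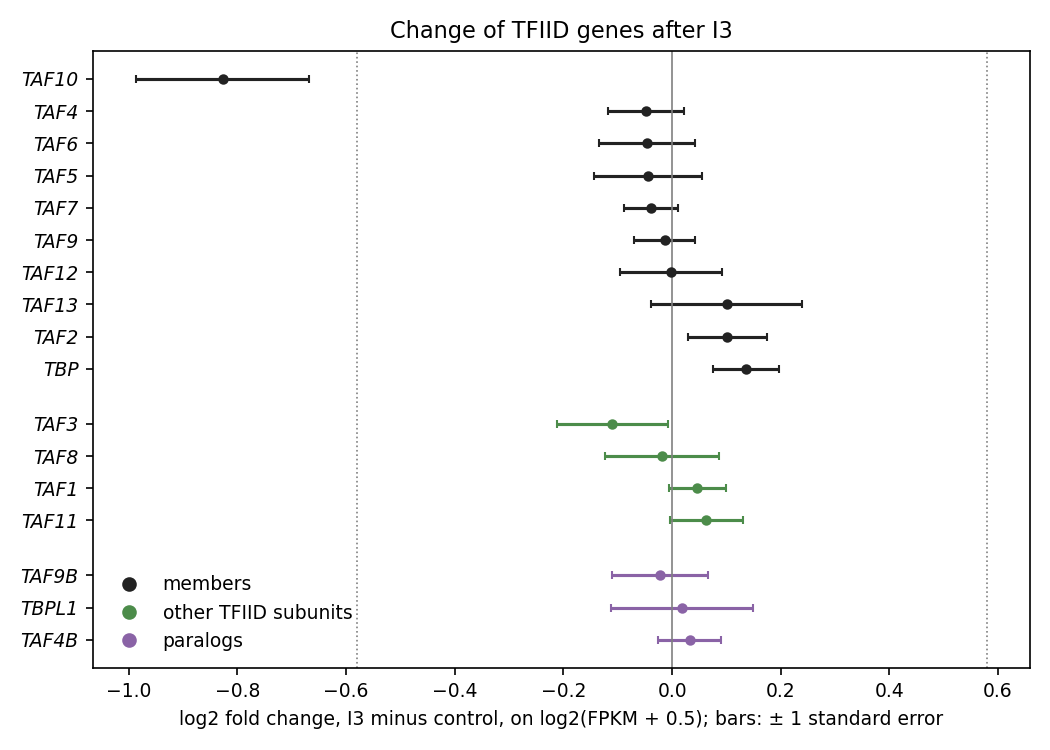
Log2 fold change of I3 minus control on log2(FPKM + 0.5) with 1 standard error for the 10 members (black), the 4 other TFIID subunits (green) and 3 paralogs (purple); dotted lines mark 0.58 in each direction. TAF10 at -0.83 lies alone beyond a dotted line, and the other genes lie between -0.11 and 0.14.

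The spread between libraries of 1 group was widest for TAF10 among the members, at a percentile of 83.1 of all 12960 genes for the residual SD. The counting error expected from its reads was 0.0591 on the log2 scale, close to that of TAF6 (0.0582), so TAF10 was not the member with fewest reads. TAF13 had the largest expected counting error of the 10, 0.116.

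In control libraries the mean levels per length ran in the order TAF7, TAF9, TAF12, TBP, TAF2, TAF6, TAF10, TAF13, TAF4 and TAF5. TAF7 at 45.9 ± 1.44 FPKM was 10.3 times TAF5 at 4.48 ± 0.233 FPKM (SD, n = 3). The control ranges of TAF12 and TBP, TAF2 and TAF6, TAF6 and TAF10, and TAF13 and TAF4 overlapped, and these neighbours did not differ beyond their spread. The order in TPM was the same. In I3 libraries 5 of the 10 members kept their position, and TAF10 went from position 7 to position 9. The order rests on the length assigned to each gene. With the longest protein-coding transcript in place of the merged exons, an alternative chosen after seeing the data, 5 members kept their position. TAF10 then stood at position 2, at 40.2 ± 3.71 FPKM in control and 21.9 ± 5.14 FPKM in I3 libraries. The ratio between the groups' FPKM for 1 gene does not involve this length.

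Ratios within a library compare a subunit with its partner under the same depth. TAF10 over TAF8, its partner in TFIID, was 1.53, 1.88 and 2.01 in control and 1.33, 1.09 and 0.641 in I3 libraries. Over TAF3, the other TFIID partner, it was 0.853, 1.22 and 1.03 in control and 0.665, 0.738 and 0.429 in I3 libraries. Both ratios were lower in every I3 library than in every control library. TAF10 over TAF6 had the narrowest control range, 0.925, 0.906 and 0.946, against 0.584, 0.571 and 0.403 in I3 libraries. Over each of the 13 other TFIID subunits the TAF10 ratio was lower in all I3 libraries, by log2 differences from -1.04 (TBP) to -0.78 (TAF3). These ratios all share the TAF10 values that chose the members.

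The other histone-fold pairs kept overlapping ratios. TAF6 over TAF9 ranged from 0.454 to 0.534 in control and from 0.441 to 0.529 in I3 libraries. TAF4 over TAF12 ranged from 0.352 to 0.477 and from 0.373 to 0.429, and TAF11 over TAF13 from 1.65 to 1.99 and from 1.501 to 1.96. Their log2 differences were -0.035, -0.052 and -0.043.

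**Figure D3:**
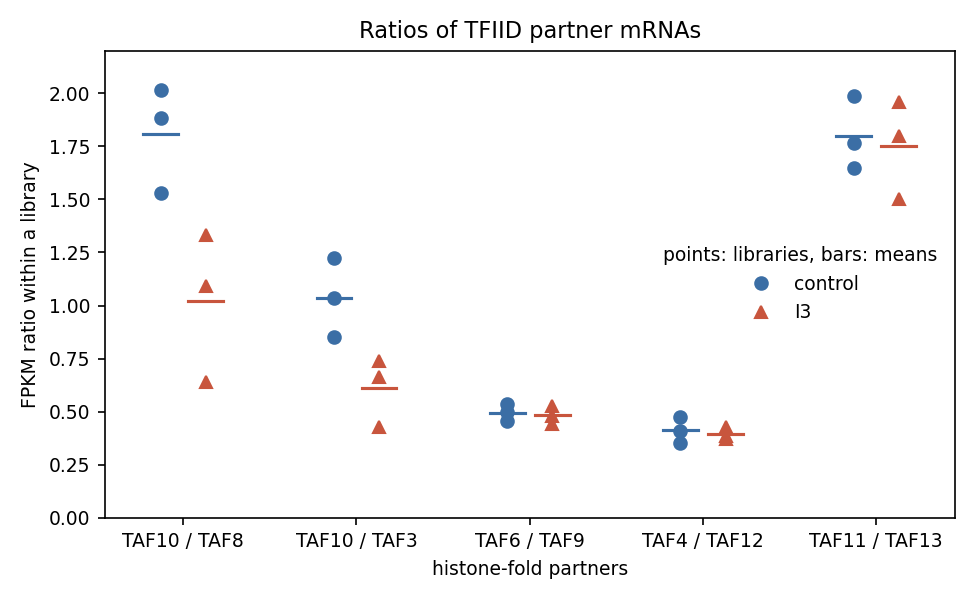
FPKM ratios within each library for 5 histone-fold partnerships of TFIID; circles are control libraries, triangles I3 libraries and bars group means (3 libraries each). TAF10 over TAF8 is at 0.641 in I3 library 3, while TAF6/TAF9, TAF4/TAF12 and TAF11/TAF13 overlap between the groups.

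The subunits of TFIID outside the 10 members were TAF1, TAF3, TAF8 and TAF11. TAF1, the largest subunit, was at 11.9, 11.7 and 11.8 FPKM in control and 12.1, 12.3 and 12.2 FPKM in I3 libraries, apart by a small margin, with a log2 difference of 0.046. TAF3, which reads trimethylated histone H3, was at 8.42, 7.07 and 7.88 FPKM in control and 7.82, 6.27 and 7.49 FPKM in I3 libraries. TAF8, which brings TAF10 into TFIID, was at 4.70, 4.59 and 4.04 FPKM in control and 3.91, 4.25 and 5.02 FPKM in I3 libraries, highest in the library where TAF10 was lowest. TAF11 was at 11.3, 11.4 and 10.1 FPKM in control and 11.4, 11.2 and 11.5 FPKM in I3 libraries. The log2 differences of TAF3, TAF8 and TAF11 were -0.11, -0.019 and 0.063, and their groups overlapped. TAF10 was the 1 of 14 TFIID subunit genes past the fold threshold, beside 359 of all 12960 genes in either direction. The way the members were chosen sets this in part.

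Of 6 TFIID paralogs and TBP-like genes, the 3 above the minimum level passed neither call rule. TAF9B was at 10.1 ± 1.18 FPKM in control and 9.89 ± 0.359 FPKM in I3 libraries, TAF4B at 10.4 ± 0.258 and 10.6 ± 0.329 FPKM, and TBPL1 at 2.18 ± 0.438 and 2.19 ± 0.118 FPKM (SD, n = 3). TAF4B was above TAF4 and TAF9B below TAF9 in level per length of merged exons in both groups. Merged exons of TAF4 span 9808 bases and its longest coding transcript 4628, against 5395 and 5260 for TAF4B. By coding length TAF4 was at 10.4 FPKM in control, so its gap to TAF4B depends on the length used. TAF7L had 12 reads over all 6 libraries. TAF1L and TBPL2 were listed at 0 in every library.

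Partner complexes and the general machinery were compared through 9 lists of 101 genes with the 10 members left out, of which 94 passed the minimum. None of the 94 passed the fold threshold with an adjusted or an unadjusted p in limma, beside 0% and, at unadjusted p, 0.756% higher and 0.648% lower over all genes. Their median was 0.0011, with 46 below and 48 above 0. With no fold threshold, 2 were higher at an unadjusted p, MED13 and MED28 of Mediator, and 2 lower, GTF2E2 of TFIIE and ATXN7L3 of the SAGA deubiquitinase module, beside 2.08% and 2.85% over all genes. The groups did not overlap for 9 list genes on the higher side and for BRF2 on the lower, beside 5.06% and 4.64%.

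In the SAGA list, 16 of 16 genes were measured, 6 below and 10 above 0 with a median of 0.034. Its ends were ATXN7L3 at -0.16, with 21.8 ± 1.20 and 19.4 ± 1.16 FPKM, and SUPT3H, a histone-fold subunit, at 0.18, with 1.63 ± 0.292 and 1.91 ± 0.223 FPKM (SD, n = 3). In the list of ATAC, an acetyltransferase complex, all 7 genes were measured, between MBIP at -0.062 and ZZZ3 at 0.13. Neither list held a gene past the fold threshold.

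The general transcription factors had the widest ends. GTF2E2 was at 8.94, 8.96 and 7.46 FPKM in control and 6.94, 7.51 and 6.02 FPKM in I3 libraries, a log2 difference of -0.29. GTF2A1, the large subunit of TFIIA, was at 5.31, 4.05 and 4.56 FPKM in control and 5.76, 4.97 and 6.28 FPKM in I3 libraries, a difference of 0.27. The groups of both genes overlapped, and of the 16 measured factors 9 were below and 7 above 0. Of 11 measured subunits of RNA polymerase II, 6 were below and 5 above 0, between POLR2I (-0.19, 69 reads in all) and POLR2K (0.14).

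In SL1 and TFIIIB, the complexes that use TBP at other polymerases, 3 of 7 genes were below 0. BRF2, a TFIIIB subunit, was at 3.76 ± 0.353 and 3.29 ± 0.0999 FPKM (SD, n = 3), a log2 difference of -0.17 with groups that did not overlap, and BDP1 was highest at 0.087. BTAF1, an ATPase that removes TBP from DNA, was at 13.6 ± 0.326 and 14.4 ± 0.315 FPKM, a log2 difference of 0.078, and DRAP1, a subunit of the TBP-binding repressor NC2, was at -0.029. Of 28 measured Mediator genes, 14 were below and 14 above 0, between CDK8 at -0.18 and MED7 at 0.26. GTF2H4, POLR2F, MED17 and MED31 were below the minimum level, as were the 3 paralogs named above. Exons of other genes cover 79.0% of GTF2H4, 1.36% of POLR2F, 13.5% of MED17 and 58.3% of MED31 exons. The part of this overlap in their low levels was not tested. Among the list ends, genes on the opposite strand cover 79.6% of POLR2I and 59.0% of BRF2 exons. The part of that overlap in their differences was not tested either.

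The genes most like TAF10 over the 6 libraries were ranked by the root mean square distance of gene-centred log2(FPKM + 0.5) values among 6641 genes with a mean of at least 5 FPKM, where the median distance was 0.467. The nearest were EID2 (0.118), ENSG00000235499 (0.126), NENF (0.142), DUSP2 (0.151) and TSR3 (0.159). NENF, which encodes a secreted heme-binding protein, was at 42.3, 49.9 and 42.7 FPKM in control and 31.6, 21.4 and 17.5 FPKM in I3 libraries. EID2, an inhibitor of differentiation that binds histone acetyltransferases, was at 9.28, 10.5 and 11.5 FPKM in control and 8.23, 7.07 and 4.69 FPKM in I3 libraries. The groups of TSR3 overlapped, and those of the other 4 did not, beside 4.64% of all genes lower without overlap. Choosing genes by nearness to TAF10 sets this in part. The distance used values from which the GC trend had not been removed. Among the members with at least 5 FPKM, the nearest to TAF10 was TAF6 at position 1068 and the farthest TAF13 at position 6292. The likeness covers 6 libraries of 2 groups and is a description.

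The GC trend of the libraries was set beside TAF10. The median GC content of its transcripts was 61.2%, the highest of the 10 members. I3 library 3, with the lowest TAF10 level, had the most negative correlation with GC content. With the trend removed by lowess, the log2 difference of TAF10 was -0.78 with a standard error of 0.137, and the groups did not overlap. On the values as deposited, without I3 library 3, the difference was -0.65. The part of the GC trend in the TAF10 difference was not tested.

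**Figure D4:**
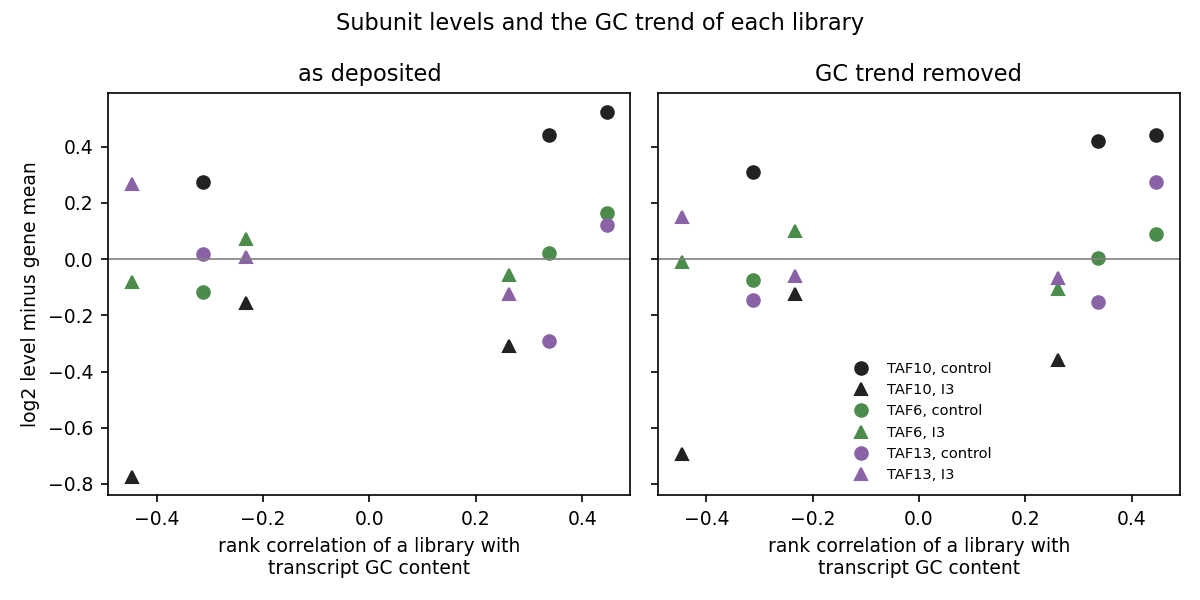
Gene-centred log2 levels of TAF10 (black), TAF6 (green) and TAF13 (purple) in each library against the rank correlation of that library with transcript GC content, as deposited (left) and after removal of the GC trend (right); circles are control and triangles I3 libraries. TAF10 triangles lie below all TAF10 circles in both panels, with the lowest at -0.78 as deposited and -0.69 after removal.

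The TAF10 row rests on a gene model that shares sequence with other genes. The merged exons in GENCODE 29 span 6103 bases, of which 2374 (38.9%) lie under exons of ILK, the integrin-linked kinase gene on the opposite strand, and 51.2% under exons of any gene. AC091564.3 and AC091564.7 on the same strand cover 16.7% and have no values in the deposited data. The overlap with ILK lies within TAF10-205, a retained-intron transcript of 5392 bases with 2374 under ILK exons. The coding transcript TAF10-201 has 1215 bases, 33 of them under ILK exons. ILK had 8, 7 and 6 reads in control and 7, 4 and 11 reads in I3 libraries, although the overlap takes up 68.1% of its exon length. The table holds 1 value per gene. Reads of the coding transcript, the retained intron, ILK and the same-strand genes therefore cannot be told apart in the TAF10 row. The kit keeps strand, but the sources used here do not say whether counting used it. Strand would not separate the same-strand genes.

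**Figure D5:**
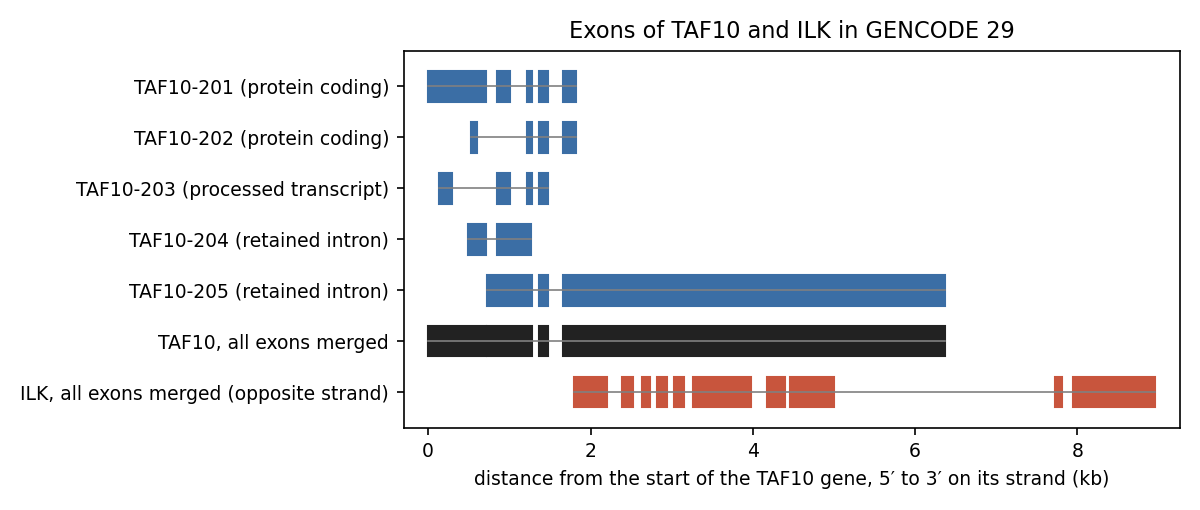
Exons of the 5 TAF10 transcripts (blue), the merged TAF10 exons (black) and the merged ILK exons on the opposite strand (red), against the distance from the TAF10 start in kb. The ILK exons overlap the long last exon of TAF10-205 and barely reach TAF10-201.

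Other members share exons with neighbours as well. AP4M1 on the opposite strand covers 24.7% of TAF6 exons, AK6 on the same strand 20.6% and RAD17 on the opposite strand 14.7% of TAF9 exons. CNPY4 covers 3.60% of TAF6 and ATP5MK 0.765% of TAF5. The log2 differences of AP4M1, AK6, RAD17, CNPY4 and ATP5MK were 0.016, -0.00016, 0.058, 0.082 and -0.028, none of them past a threshold, and the groups of all 5 overlapped.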

How the data were processed

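mRNA-seq was analysed for 6 libraries, 3 control and 3 I3, grouped by the labels. The authors deposited FPKM values, normalized to gene length and library depth, with 1 column per library, and 0 columns were left out. Trimmomatic, HISAT2, Cufflinks, HTSeq and hg38 are named in the submitters' processing notes without roles or versions, and the sources used here do not give the annotation. Gene models were taken from GENCODE 29 (29703 of 29810 identifiers matched), 23683 genes had a symbol, and promoter windows were RefSeq sequence. FPKM multiplied by exon length gave whole reads for 95.8% of 26519 genes (tolerance 0.1 read).

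Groups were compared with limma 3.58.1 (R 4.3.3; lmFit, then eBayes with trend). The fit used log2(FPKM + 0.5) of the 12960 genes whose mean reached 0.5 FPKM and was two-sided, with Benjamini-Hochberg adjustment. It replaces the count test of the study's methods, with the same thresholds (adjusted p 0.05, log2 fold change 0.58), because no counts were used here as deposited values. A log2 fold change with a pseudocount understates the change of low genes. An unadjusted p with the same fold was a second rule. The fit was tested on simulated data.

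The members and lists were chosen with earlier results of these data known. Named genes were the members, the other TFIID subunits and paralogs, genes overlapping member exons, the 5 genes nearest TAF10, the ends of each other list, and GAPDH, ACTB and HPRT1. MED13 and MED28 were named after their values were seen. Alternatives were other pseudocounts, minimum levels, scalings (TPM, median of ratios, quantile), GC removal (lowess span 0.3), a replicate block, eBayes without trend, voom on rebuilt reads and leaving out each library. Replicate libraries differed beyond sampling noise (chi-square per degree of freedom 4.68 to 15.6). Python 3.11.15, pandas 2.3.3, scipy 1.17.1 and matplotlib 3.10.9 were used.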

Additional observations from a re-analysis of the deposited data

How the results depend on the processing

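TAF10 was chosen for being lower in these same libraries, so its values under the alternatives are a description. Its log2 difference ranged from -0.96 (without I3 replicate 1) to -0.65 (without I3 replicate 3) when 1 library was left out, and from -0.90 (voom) to -0.76 (pseudocount 1) under the other fits. Ratios of TAF10 to each of the 13 other subunits, added after seeing the data, gave -1.04 to -0.78. For the other members, 151 of 151 alternatives gave the same call, between -0.13 and 0.19. Of higher genes at an unadjusted p there were 98, against 62 when the pseudocount was 1, 6 at a minimum of 5 FPKM and 229 in TPM. The 84 genes lower became 24 with a minimum of 5 FPKM and 162 in TPM. A minimum of 5 FPKM leaves fewer genes. The TPM fit kept the same numbers for the minimum level and the pseudocount, although TPM values are larger. The control mean of TAF10 was 28.4 in TPM and 7.99 in FPKM. Both settings were therefore lower relative to gene levels in TPM, and their part in the TPM counts was not tested. The cause of the change with a pseudocount of 1 was not tested either. Leaving out 1 library gave 91 to 145 genes higher and 73 to 132 lower at an unadjusted p, the 132 without I3 replicate 1, and 0 to 1 higher (1 without control replicate 1) and 0 to 2 lower (2 without I3 replicate 1, 1 without I3 replicate 2) at an adjusted p. Members below 0 numbered 5 to 8 and their median ran from -0.039 to -0.0076 over the alternatives. The -0.0076 came with a minimum of 5 FPKM, which leaves out TAF4 and TAF5, both below 0 in the main fit. In the level order, 5 members kept their position in I3 libraries and 5 with the length of the longest coding transcript.

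The labels do not say whether same-numbered control and I3 libraries were paired. Correlations of their deviations were 0.063, 0.15 and -0.024. Those of differently numbered libraries ran from -0.17 to 0.10. A replicate block gave 109 genes higher and 91 lower at an unadjusted p, 0 and 0 at an adjusted p, and a TAF10 difference of -0.83 with a standard error of 0.156. In this balanced design the block cannot move a log2 difference.

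With 3 libraries a group, differences between members of the size of TBP's lie near the spread between libraries. The row of TAF10 merges transcripts whose reads cannot be told apart, and its level relative to other genes depends on the exon length used.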
